A study of Rattus norvegicus with 24 samples.

Results

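Crystallins and other genes named for the lens were followed in rat retina: Cryab, Cryba2, Cryba4, Crybb1, Crybb3, Crygd, Lenep, Lgsn and Lim2. These 9 genes, of 4013 that could be given a symbol on the array, were chosen by symbol, and every probe whose RefSeq accession belongs to them was taken. Each had a single probe among 33849 rat probes, and all 9 passed the filter on dim probes that left 22025 probes for testing. The study hybridised retinal RNA of male Sprague Dawley rats to CodeLink whole genome arrays, with 6 biological replicates in each of 4 groups by the labels, while the table of animals in the study's text lists fewer controls at 1 month than there are arrays. The 1M STZ and 3M STZ groups had received streptozotocin (STZ) by intraperitoneal injection, which destroys the insulin-producing beta cells, and were killed 1 month and 3 months later. The 1M Control and 3M Control groups received citrate vehicle and were killed at the same times, so each diabetic group has controls of its own age. The model is one of insulin deficiency, not of insulin resistance. The RNA came from retina as a whole, so fewer cells of a type and less RNA per cell cannot be told apart.

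Crystallins are the soluble proteins that fill the lens fibre cell. The alpha-crystallins are small heat shock proteins that hold unfolding proteins in solution, and the beta- and gamma-crystallins are a family of compact structural proteins built from Greek key domains. Several of them, Cryab above all, are also made in the retina, in glia, in the pigment epithelium and in neurons, and their transcripts are known to vary with injury, light and metabolic stress. Lenep, Lgsn and Lim2 are known mainly from the lens, where Lenep is expressed in epithelium, Lgsn encodes lengsin, a relative of glutamine synthetase without its activity, and Lim2 encodes an intrinsic membrane protein of fibre cells.

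The genes are described as 2 sets after 3 months of diabetes. Cryab and the 4 beta-crystallins were higher on every 3M STZ array than on any 3M Control array, by 2.05-fold (Cryba2) to 3.02-fold (Crybb1). Crygd, Lenep and Lgsn were higher by 21.0-fold, 6.58-fold and 4.61-fold. Lenep was above all controls on all 6 diabetic arrays, and Crygd and Lgsn on 5 of the 6, with array 3M STZ 2 within the control range for Crygd and below it for Lgsn. Lim2 differed by 1.35-fold and was not called. After 1 month none of the 9 genes was called. The rise of the first set depended on how arrays were scaled to each other, and that of Crygd, Lenep and Lgsn did so far less.

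Levels below are log2 of the background-subtracted spot intensity over the median of the array's rat probes, so that 0 is the array median. A gene was called when limma gave a Benjamini-Hochberg adjusted p under 0.05 over all tested probes and a change of at least 1.2-fold. The scaling matters here because the arrays were not alike. The median intensity of an array ran from 149 to 308 in the 3M Control group and from 125 to 164 in the 3M STZ group, and these ranges overlapped. The interquartile range of the log2 values was 3.36 to 3.67 on all 12 arrays of 1 month. It was 1.48 to 2.23 on 3M Control arrays and 2.07 to 2.70 on 3M STZ arrays. Levels at 1 month and 3 months are therefore not compared directly, except for Grifin and probes at least 32-fold apart under Other observations. Over the whole set of tested probes the STZ groups had a median shift of 0.44 (log2) at 3 months and of 0.01 at 1 month. Rod genes, the check on the labelled tissue, had mean log2 levels of 4.74 to 6.30 over the 24 arrays. Nothing in the labels names a batch.

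**Figure D1:**
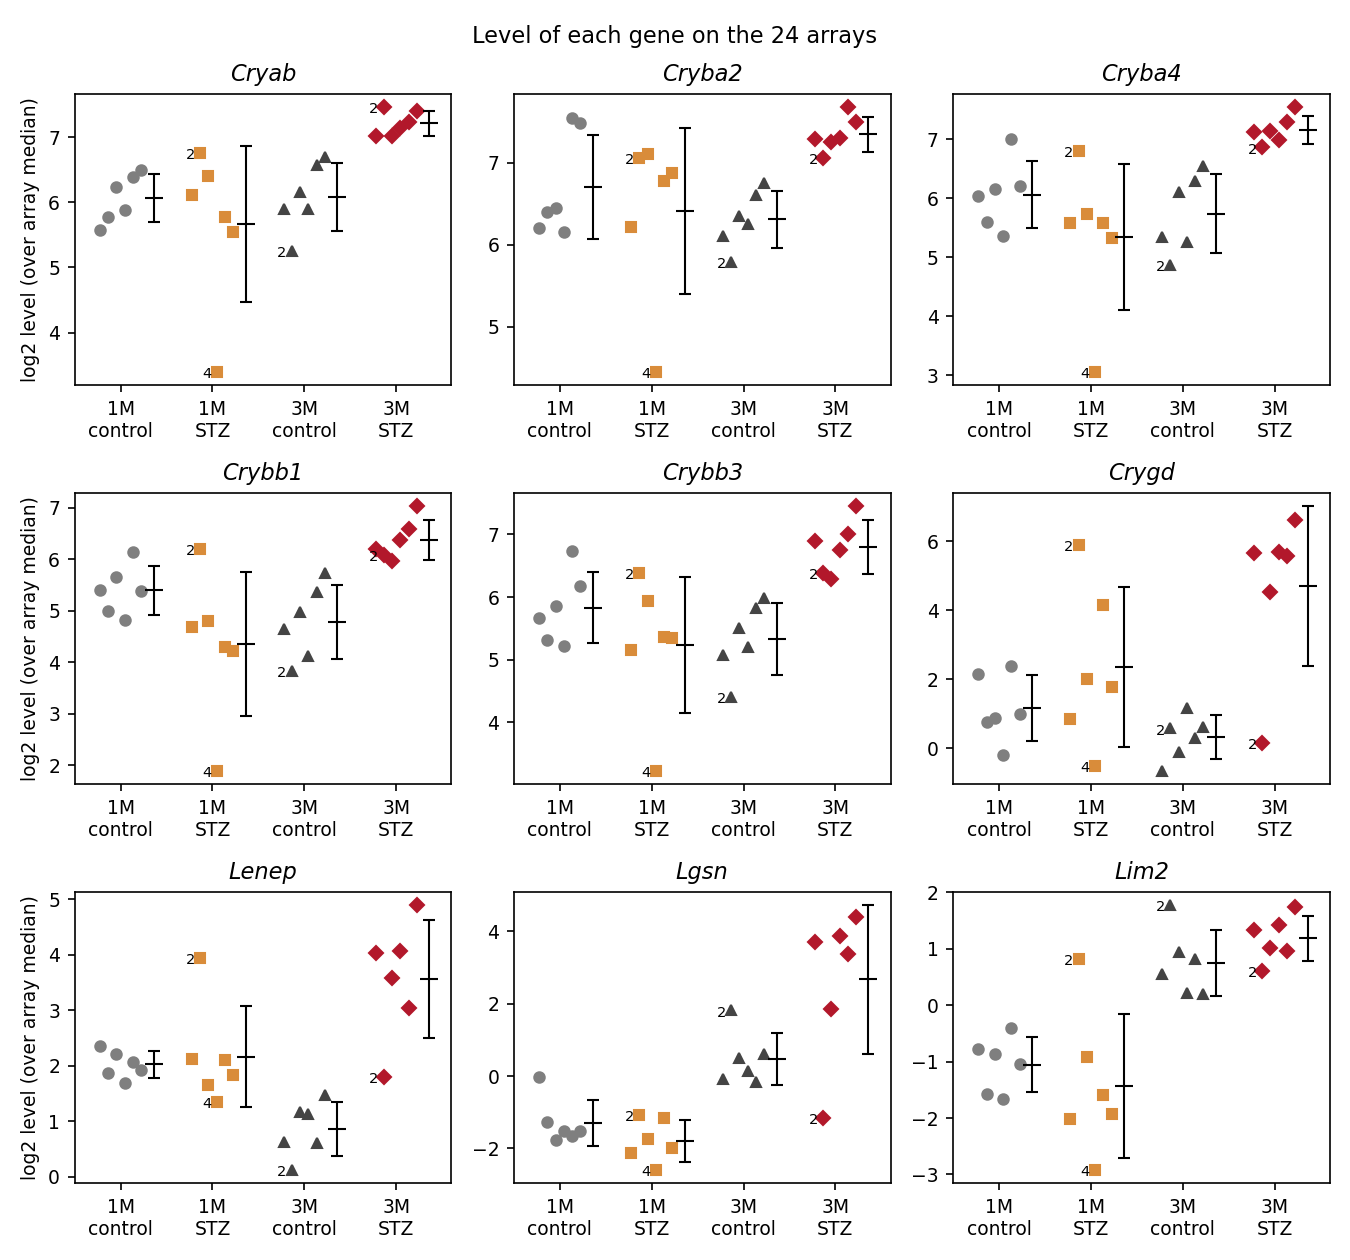
Log2 level (over the array median) of each of the 9 genes on all 24 arrays, in 4 groups of 6; points are arrays, in order of replicate number, and the dash with whiskers is the mean ± SD. Numbers mark replicates 2 and 4 of 1M STZ and replicate 2 of 3M Control and 3M STZ. The first 5 panels show all 3M STZ arrays above all 3M Control arrays, while Crygd, Lenep and Lgsn show 3M STZ 2 far below the other 5 diabetic arrays and 1M STZ 4 is the lowest of its group in all 9 panels.

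Cryab encodes alphaB-crystallin, the chaperone of the group. Its levels at 3 months were 5.26, 6.03 and 6.70 (lowest, median and highest of 6) in controls and 7.01, 7.18 and 7.47 in STZ rats. All 6 diabetic arrays lay above all controls, and they lay closer together (SD 0.19 against 0.52). Cryab was higher in STZ rats by 1.13 on the log2 scale (SE 0.35, limma adjusted p = 0.0101). Array 3M STZ 2, which stood apart for other genes, had the highest Cryab level of its group. After 1 month the levels were 5.58, 6.06 and 6.49 in controls and 3.40, 5.94 and 6.76 in STZ rats. The groups overlapped almost completely apart from array 1M STZ 4.

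Cryba2, a beta-crystallin of the acidic branch, had levels of 5.79, 6.30 and 6.75 in 3-month controls and 7.06, 7.29 and 7.68 in 3-month STZ rats. The groups did not overlap. Its log2 fold change was 1.04 (SE 0.32, limma adjusted p = 0.0108), the smallest among the called genes. One month after injection the levels were 6.16, 6.42 and 7.55 in controls and 4.45, 6.83 and 7.10 in STZ rats, and the STZ median was the higher of both.

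Cryba4, also of the acidic branch, had levels of 4.87, 5.72 and 6.56 in 3M Control and 6.86, 7.13 and 7.55 in 3M STZ. Every diabetic array was above every control, with a log2 fold change of 1.42 (SE 0.39, limma adjusted p = 0.00488). At 1 month the levels were 5.37, 6.10 and 6.999 in controls and 3.06, 5.59 and 6.81 in STZ rats. Here 4 of the STZ arrays lay between 5.33 and 5.74, about the level of the lowest 2 controls.

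Crybb1, a basic beta-crystallin, showed the widest change of the first set. Levels at 3 months were 3.83, 4.81 and 5.73 in controls and 5.97, 6.28 and 7.04 in STZ rats, without overlap. This gave a log2 fold change of 1.59 (SE 0.43, limma adjusted p = 0.00428). At 1 month Crybb1 had levels of 4.82, 5.39 and 6.15 in controls and 1.89, 4.49 and 6.20 in STZ rats. Apart from array 1M STZ 2 all diabetic arrays were below all 6 controls. This was the nearest approach to a lower level at 1 month, with a log2 fold change of -1.05 (SE 0.43) whose unadjusted p from limma was 0.0205 and whose adjusted p was 1.00.

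Crybb3, the remaining basic beta-crystallin, had levels of 4.41, 5.35 and 5.98 in 3-month controls and 6.29, 6.82 and 7.46 in 3-month STZ rats. The groups were separate, and the log2 fold change was 1.47 (SE 0.36, limma adjusted p = 0.00247). After 1 month its levels were 5.21, 5.76 and 6.73 in controls and 3.22, 5.35 and 6.39 in STZ rats, which overlapped.

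Crybb1 and Cryba4 are next to each other on chromosome 12 in RefSeq, on opposite strands with no gene between them, and they had the highest correlation of any 2 of the genes (r = 0.97 over 24 arrays, on deviations from group means). Their sequences just upstream of the start site, 150 bases each from RefSeq (GRCr8), are shown because the genes share this locus and moved together. Capitals mark TGCTGA, a part of the sequence bound by large Maf proteins, which regulate crystallin genes in the lens. The Cryba4 stretch is chr12:50046899-50047048 on the plus strand and that of Crybb1 is chr12:50043757-50043906 on the minus strand.
Cryba4: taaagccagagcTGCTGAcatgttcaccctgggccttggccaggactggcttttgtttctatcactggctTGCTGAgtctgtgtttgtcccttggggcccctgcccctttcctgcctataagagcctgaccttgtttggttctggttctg
Crybb1: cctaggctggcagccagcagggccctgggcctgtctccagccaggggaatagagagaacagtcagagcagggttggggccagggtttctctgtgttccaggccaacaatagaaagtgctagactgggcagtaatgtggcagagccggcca
TGCTGA begins 138 and again 80 bases before the Cryba4 start site. In Crybb1 no match lies in the printed stretch, and its match begins at position 18 after the start site. Of the 9 genes 8 had a RefSeq promoter window (250 bases before to 50 after the start site), and 4 of these 8 held TGCTGA on either strand (Cryba2, Cryba4, Crybb1 and Lim2), beside 18.4% of all 33469 windows.

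The probes of Cryab and the 4 beta-crystallins were among the brightest spots of the arrays. Of their 120 spots 91 ranked among the 100 brightest of their array, and on 3M STZ arrays their intensities ran from 8563 (Crybb1) to 27069 (Cryba4). The brightest spot of any kind on an array lay between 26976 and 60278. The part of spot brightness in the size of the measured changes was not tested. Before division by the array median the groups overlapped at 3 months for all 5, as for Cryba2 at 13394 to 25022 in controls and 20260 to 26055 in STZ rats.

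Crygd, which encodes gammaD-crystallin, differed most of the 9 genes. Its levels were -0.66, 0.43 and 1.18 in 3-month controls and 0.16, 5.62 and 6.61 in 3-month STZ rats. The diabetic arrays fell into 5 that lay between 4.54 and 6.61, far above all controls, and array 3M STZ 2 at 0.16, inside the control range. In intensity the 3M Control arrays ran from 151 to 445, while the STZ arrays had a median of 7145 and a highest value of 14047. The log2 fold change was 4.39 (SE 0.86, limma adjusted p = 0.000513), and it was 5.30 (SE 0.71, adjusted p = 3.57e-05) without 3M STZ 2. No tested probe was lower on 3M STZ 2, relative to the mean of the other 5 arrays of its group, than Crygd. Rat gamma-crystallin genes are close relatives in a cluster on chromosome 9, the files give no probe sequences, and the signal cannot be assigned to Crygd alone.

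At 1 month Crygd was already uneven. Controls had levels of -0.21, 0.93 and 2.37, and STZ rats -0.52, 1.89 and 5.89. Array 1M STZ 2, at 5.89, and array 1M STZ 5, at 4.15, lay above every control, while 1M STZ 4 lay below every control. On 1M STZ 2 only 1 other tested probe stood as far above the rest of the group as Crygd. The STZ mean at 1 month was higher by 1.201 on the log2 scale (SE 0.86, limma adjusted p = 1.00), by 0.49 without 1M STZ 2 and by 1.78 without 1M STZ 4.

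Lenep encodes a lens epithelial protein. Levels at 3 months were 0.12, 0.87 and 1.48 in controls and 1.80, 3.81 and 4.90 in STZ rats. Array 3M STZ 2 was again the lowest, at 1.80, but unlike Crygd it lay above all controls, and the groups did not overlap. Lenep was higher by 2.72 on the log2 scale (SE 0.38, limma adjusted p = 4.32e-05) and 3.07 without 3M STZ 2. At 1 month the levels were 1.69, 2.00 and 2.36 in controls and 1.35, 1.97 and 3.94 in STZ rats. The medians differed little, and 1M STZ 2 alone lay above the controls.

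Lgsn had levels of -0.16, 0.31 and 1.82 in 3M Control and -1.15, 3.53 and 4.41 in 3M STZ. On 3M STZ 2 its level of -1.15 was below every control, whereas the other 5 diabetic arrays lay above every control. The log2 fold change was 2.20 (SE 0.58, limma adjusted p = 0.00403), rising to 2.97 (SE 0.39, adjusted p = 2.78e-05) without 3M STZ 2. The highest control, 3M Control 2, held 1.82 while the other 5 controls reached no more than 0.61. Levels at 1 month were -1.77, -1.51 and -0.04 in controls and -2.59, -1.87 and -1.07 in STZ rats, below the array median throughout.

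The stretches of 150 bases upstream of the start sites of these 3 genes are printed because the genes changed together on the same arrays. Capitals mark TATAAA, the core promoter element, in Lgsn, and GAANNTTC, a pair of the units that heat shock factors bind, in Lenep; the Crygd stretch holds no match. They are chr9:73937410-73937559 on the minus strand for Crygd, chr2:177117860-177118009 on the minus strand for Lenep and chr9:40916370-40916519 on the plus strand for Lgsn (GRCr8, RefSeq).
Crygd: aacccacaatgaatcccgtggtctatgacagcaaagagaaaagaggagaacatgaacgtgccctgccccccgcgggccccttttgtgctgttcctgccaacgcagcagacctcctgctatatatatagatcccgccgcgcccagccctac
Lenep: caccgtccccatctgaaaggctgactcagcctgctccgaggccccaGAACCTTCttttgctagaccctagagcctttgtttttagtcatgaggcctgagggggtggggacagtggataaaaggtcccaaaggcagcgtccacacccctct
Lgsn: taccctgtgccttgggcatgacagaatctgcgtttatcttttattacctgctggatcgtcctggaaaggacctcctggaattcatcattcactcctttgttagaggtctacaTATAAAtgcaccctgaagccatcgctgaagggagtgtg
GAANNTTC was found in 1 of the 8 windows of these lens genes (Lenep, beginning 104 bases before the start site) and in 8.59% of all windows. TATAAA was found in 2 of the 8 (Cryba2 and Lgsn, each beginning 38 bases before the start site) and in 14.2% of all windows. GAANNTTC followed, after 2 bases, by a further GAA was in none of the 8 and in 0.798% of all, which says only that it is not in these windows. The motifs were searched on both strands.

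Lim2, the membrane protein of fibre cells, was the gene that was not called. Its levels at 3 months were 0.19, 0.69 and 1.78 in controls and 0.61, 1.18 and 1.74 in STZ rats. The groups overlapped over most of their range, with 3M Control 2 the highest array of both. The log2 fold change of 0.43 had a 95% interval of -0.37 to 1.23 (limma adjusted p = 0.342), which does not exclude a change of the size seen for Cryab. At 1 month the levels were -1.67, -0.95 and -0.41 in controls and -2.92, -1.76 and 0.82 in STZ rats, with 1M STZ 2 the highest and 1M STZ 4 the lowest of all 12 arrays.

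At 3 months 8 of the 9 genes were called higher and 0 lower, where 50.5% of all tested probes were called higher and 3.55% lower. The median log2 fold change was 1.47 for the 9 genes beside 0.44 for all tested probes. A call by itself therefore sets these genes apart little. The size of their changes was at the upper end. In the order of all log2 fold changes at 3 months Cryba2 stood at percentile 96.5, Cryab at 97.7, Cryba4 at 99.1, Crybb3 at 99.3 and Crybb1 at 99.6, and Lim2 stood at 48.9. For 6 of the 9 genes (Cryab, the 4 beta-crystallins and Lenep) all STZ arrays lay above all controls, which held for 9.49% of all tested probes.

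**Figure D2:**
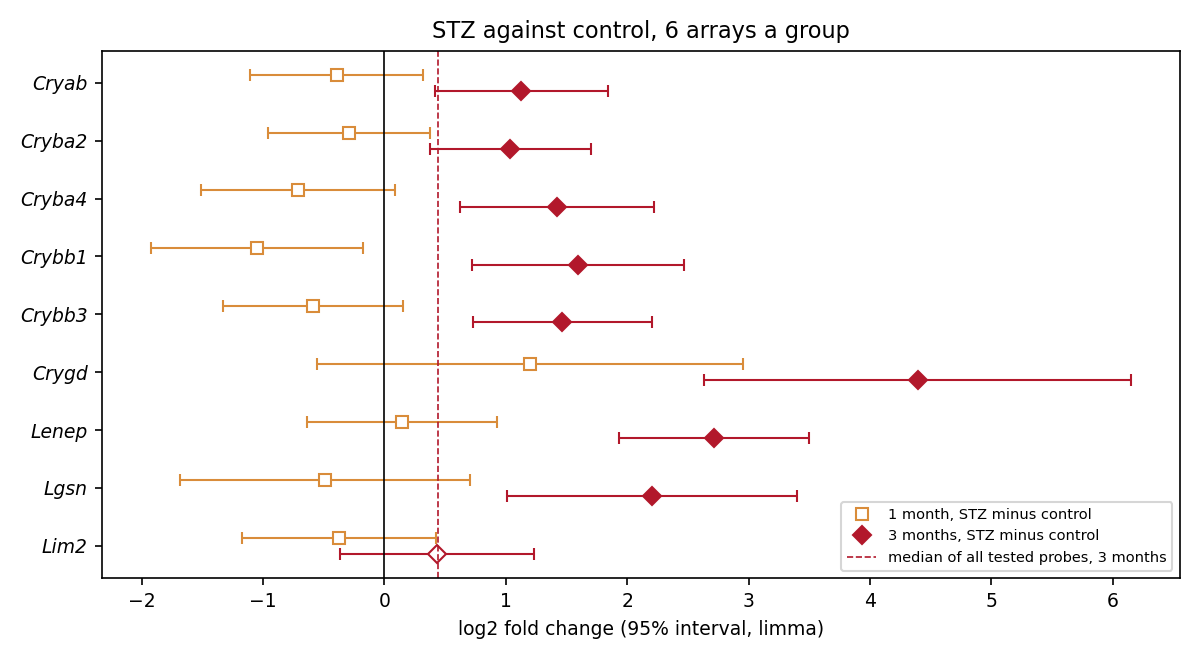
Log2 fold change of STZ over control with its 95% interval from limma, for the 9 genes at 1 month (squares) and 3 months (diamonds), 6 arrays a group; filled symbols were called, and the dashed line is the median of all tested probes at 3 months, 0.44. At 3 months 8 genes are filled and the Crygd interval is the furthest to the right, while at 1 month none is filled and 7 of 9 estimates lie below 0.

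The same comparison after quantile normalization, which gives all arrays an identical distribution of values, split the genes along the lines of the 2 sets. Crygd (log2 fold change 4.11, limma adjusted p = 0.000966), Lenep (2.29, adjusted p = 0.000147) and Lgsn (1.80, adjusted p = 0.0382) were still called. The other 5 were not, with values of 0.17 for Cryab, 0.09 for Cryba2, 0.40 for Cryba4, 0.64 for Crybb1 and 0.45 for Crybb3 and adjusted p between 0.272 and 0.870. So 3 of 9 genes were called higher, where 24.6% of all tested probes were called higher and 6.92% lower, and the count of genes whose groups did not overlap went from 6 to 0 (6.86% of all probes). With the intensities left undivided, 2 of 9 were called (Crygd and Lenep), where 0.345% of all tested probes were called higher and 4.06% lower. Quantile normalization within each time point also called 3 of 9, where 20.2% of all tested probes were called higher. The unequal-variance test of the study's methods called 7 of 9 at its own limit, where 15.8% of probes were called higher, and 6 of 9 after adjustment, where 8.12% were. With array brightness as a covariate 5 of 9 were called (17.8% of probes), with array spread as a covariate 0 of 9 (0% of probes), and without 3M Control 2 and 3M STZ 2 together 7 of 9 (32.4% of probes). With array spread as a covariate the median log2 fold change was 1.06 for the 9 genes and 0.05 for all tested probes. Without it these medians were 1.47 and 0.44. Leaving the intensities undivided lowers every gene by the same amount, and moves the median of all probes to -0.17.

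Set against the median of all probes, which moved to 0.16 under quantile normalization, Crygd was higher by 3.95 under either scaling, Lenep by 2.27 and 2.13 and Lgsn by 1.76 and 1.64 on the log2 scale (array median first, quantile second). Crybb1 went from 1.15 to 0.48, Crybb3 from 1.02 to 0.29 and Cryba4 from 0.98 to 0.24. Cryab went from 0.68 to 0.01 and Cryba2 from 0.59 to -0.07, so neither was above the rest of the array after quantile normalization. Lim2 stayed near the median, at -0.01 and -0.12.

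**Figure D3:**
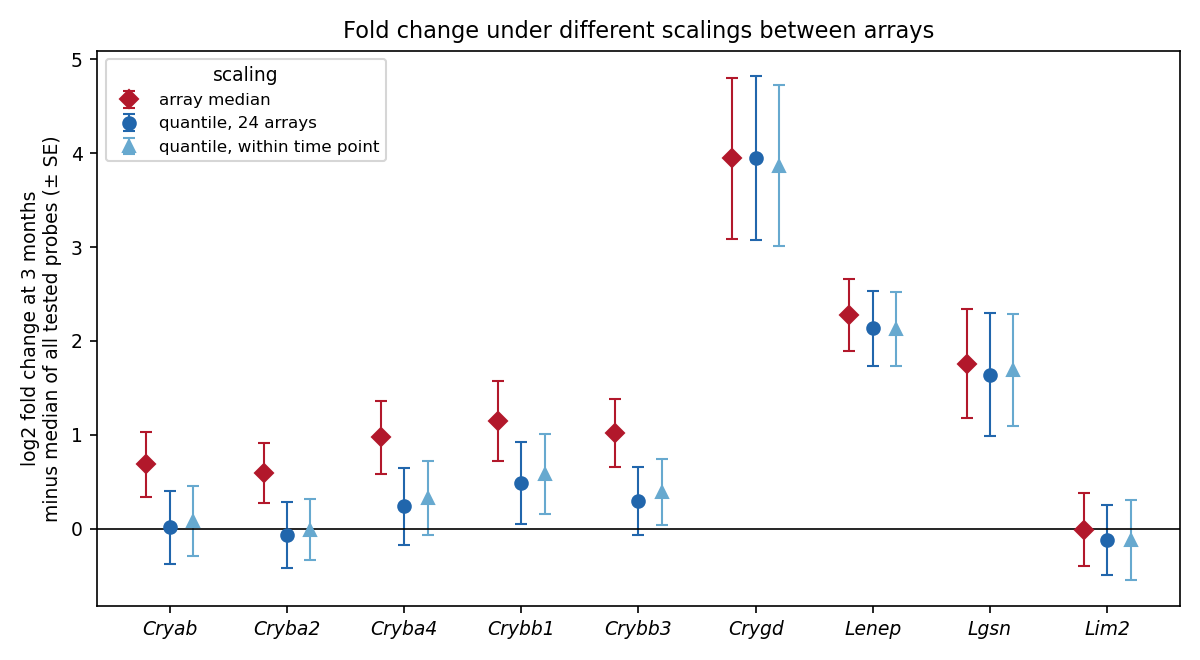
Log2 fold change at 3 months minus the median of all tested probes (± SE) for each gene under scaling by the array median, quantile normalization of the 24 arrays and quantile normalization within each time point. Crygd, Lenep and Lgsn keep nearly the same place under the 3 scalings, whereas Cryab and Cryba2 come down to about 0 and the other beta-crystallins lie between.

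After 1 month limma called 0 of the 9 genes, and 0.00908% of all tested probes (2 probes) were called. At an unadjusted p under 0.05 a single gene passed, Crybb1, and the unequal-variance test of the study's methods at its own limit called 0 of the 9 (1.19% of all tested probes). The estimates were negative for 7 genes and positive for Crygd and Lenep, with a median of -0.39 beside 0.01 for all tested probes. The intervals were wide, such as -1.11 to 0.32 for Cryab and -0.56 to 2.96 for Crygd.

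A few arrays set much of this spread. Array 1M STZ 4 had the lowest level of its group for all 9 genes. It lay 2.36 (Cryba2) to 2.95 (Crybb1) below the mean of the other 5 arrays for Cryab and the beta-crystallins, and 3.45 below for Crygd. Of the 22025 tested probes no more than 62 were as low there as any of these 6 genes. Array 1M STZ 2 had the highest level of its group for 8 of the 9 genes, all but Cryba2, by 4.24 for Crygd, 2.70 for Lim2 and 2.13 for Lenep over the mean of the others. Without 1M STZ 4 the values at 1 month were 0.06 for Cryab, 0.10 for Cryba2, -0.25 for Cryba4, -0.56 for Crybb1 and -0.19 for Crybb3, so the first 2 changed sign. The median intensity and the spread of 1M STZ 4 were within the range of its group, and what sets this array apart was not tested.

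Whether the effect of STZ differed between 3 months and 1 month was tested by limma as a difference of differences. It was called for 7 of the 9 genes, each more positive at 3 months, where 14.8% of all tested probes were called in that direction. The log2 difference was 2.64 (SE 0.60, adjusted p = 0.0173) for Crybb1, 2.13 (SE 0.55, adjusted p = 0.0235) for Cryba4, 2.06 (SE 0.51, adjusted p = 0.0211) for Crybb3, 1.52 (SE 0.49, adjusted p = 0.0405) for Cryab and 1.33 (SE 0.46, adjusted p = 0.0483) for Cryba2. Lenep differed by 2.57 (SE 0.54, adjusted p = 0.0132) and Lgsn by 2.69 (SE 0.83, adjusted p = 0.0353). At 1 month Lgsn lay below the limit of the filter on dim probes (log2 level -0.85) on every array but 1M Control 1. The Lgsn difference thus rests on a 1-month comparison below that limit and carries no weight. The largest estimate, 3.19 for Crygd, had an SE of 1.21 and was not called (adjusted p = 0.0637). It was called without 3M STZ 2 (4.101, adjusted p = 0.0212) and without 1M STZ 2 (3.90, adjusted p = 0.0360). Lim2 was not called (0.80, adjusted p = 0.254). Under quantile normalization Lenep alone was called (9.66% of all tested probes). The counts under other settings were 1 of 9 with quantile normalization within time points (3.6% of probes), 0 with undivided intensities (0.00454%) or array spread as a covariate (0%), and 4 with the 5th percentile subtracted first (11.1%) or array brightness as a covariate (5.32%). Some of these calls were close to the threshold. Leaving out each of the 24 arrays in turn, that of Cryba2 was lost in 17 cases, that of Cryab in 11 and that of Lgsn in 6, those of Cryba4, Crybb1, Crybb3 and Lenep in none, and Crygd became called in 3. Without 3M STZ 2 the calls of Cryab (adjusted p = 0.0606) and Cryba2 (adjusted p = 0.0585) were among those lost, and without 1M STZ 4 the calls of Cryba2 (0.94, adjusted p = 0.0585) and Lgsn (2.53, adjusted p = 0.0527) were lost.

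The genes were also compared between arrays of the same group. On deviations from the group means over 24 arrays, the 10 correlations among Cryab and the 4 beta-crystallins ran from 0.81 to 0.97, and the 3 among Crygd, Lenep and Lgsn from 0.65 to 0.81. Between the sets the 15 correlations ran from -0.01 to 0.62, with a median of 0.38. Leaving out 1M STZ 2 and 1M STZ 4 gave 0.61 to 0.93, 0.69 to 0.84 and -0.34 to 0.45. Leaving out 1M STZ 4 and 3M STZ 2 gave 0.58 to 0.94 among Cryab and the beta-crystallins, 0.32 to 0.66 among Crygd, Lenep and Lgsn, and -0.23 to 0.68 (median 0.36) between the sets. Without these arrays Crygd, Lenep and Lgsn therefore did not stand apart as a set by correlation. All of these describe probes of the same arrays, which share the array's scaling.

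**Figure D4:**
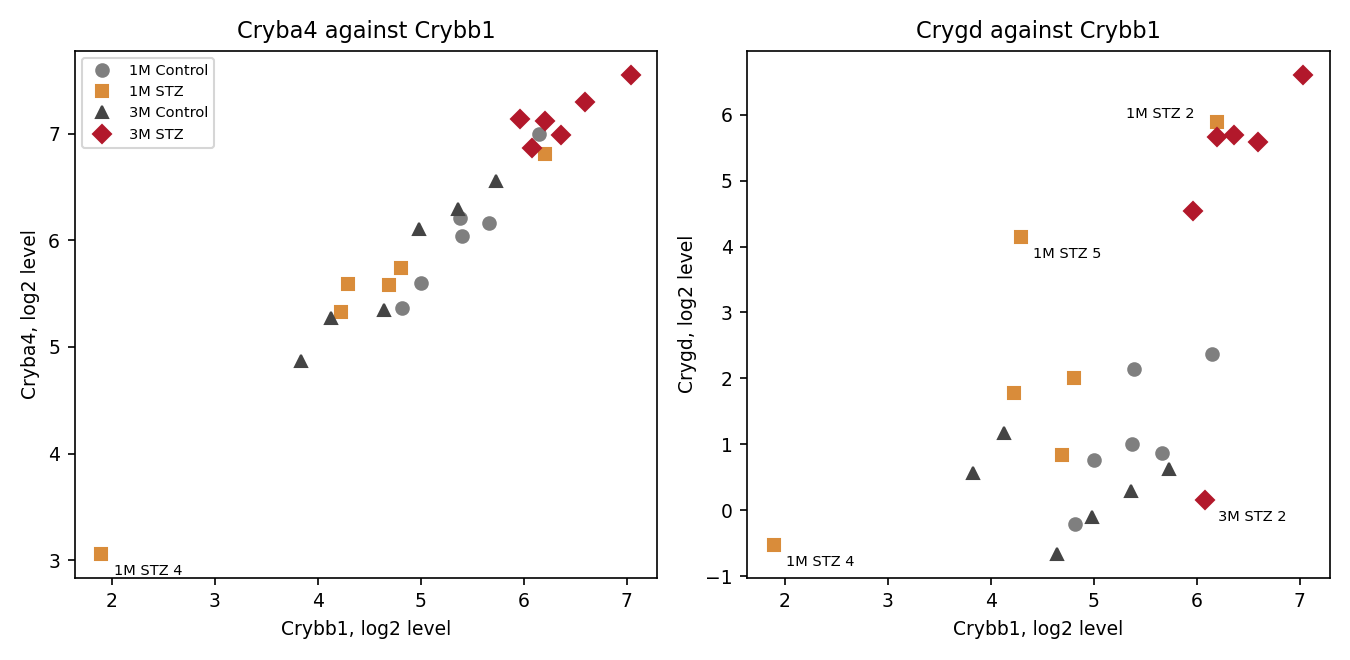
Log2 levels of Cryba4 (left) and Crygd (right) against Crybb1 on the 24 arrays, with symbols for the 4 groups. Cryba4 follows Crybb1 along a line over all groups, down to 1M STZ 4, whereas Crygd is high on 5 of 6 arrays of 3M STZ and on 1M STZ 2 and 1M STZ 5, and 3M STZ 2 combines high Crybb1 (6.08) with low Crygd (0.16).

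Other genes named for the lens were fewer on the array. Of 24 further lens genes listed, 7 had a matched probe and 4 could be tested, of which 3 were called higher at 3 months, where 50.5% of all tested probes were, and none at 1 month. The remaining tested gene, Grifin, passed the filter through its 1-month arrays and lay below the filter's limit on every 3-month array, so its 3-month comparison carries no weight. Tdrd7, a component of RNA granules in lens fibres, was higher by 0.96 on the log2 scale (SE 0.22, limma adjusted p = 0.00151), Maf, the lens transcription factor, by 0.81 (SE 0.23, adjusted p = 0.00528) and Pitx3, another factor of lens development, by 0.77 (SE 0.18, adjusted p = 0.00177). Crystallin-related enzymes had 1 of 4 tested genes called higher (Crym, by 0.98, SE 0.22, adjusted p = 0.00148) and a median of 0.26, and among the other small heat shock proteins 1 of 3 was called higher (Hspb3, by 0.38, SE 0.15, adjusted p = 0.0328), with a median of 0.35. Both shares lie below that 50.5%, and both medians below the 0.44 of all probes.

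Dnase2b, the nuclease that degrades DNA in maturing lens fibres, was too dim to be tested and was picked out after its values were seen. Its brighter probe had levels of -2.32, -1.55 and -0.70 in 3-month controls and -1.51, 0.66 and 1.42 in 3-month STZ rats. As for Crygd, array 3M STZ 2 held the lowest value of the diabetic group while the other 5, from 0.24 upward, lay above all controls. The other probe of Dnase2b gave -2.79, -2.04 and -1.52 in controls and -2.34, -0.14 and 0.50 in STZ rats, with 3M STZ 2 again lowest. Gja3, which encodes a gap junction protein, was dim in both groups, with a mean log2 level of -2.47 in 3-month controls and -2.57 in 3-month STZ rats. The probes named here held no match for Cryaa, Mip, Bfsp1 or Bfsp2, the defining genes of lens fibres, so these were not analysed here.

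Marker lists of neighbouring tissues and of retinal cells were read beside these changes. Their counts stand beside the 50.5% of all tested probes called higher at 3 months. Ciliary body, iris and cornea genes had 2 of 6 called higher (Tkt and Aldh3a1), with a mean log2 level of 0.68 to 1.64 on control and 1.30 to 1.88 on STZ arrays. Erythrocyte genes had 1 of 3 called higher (-0.18 to 0.11 on control and -0.25 to 0.05 on STZ arrays). Mueller glia and astrocyte genes had 6 of 9 called higher and 1 lower, with a mean level of 2.22 to 3.09 on control and 3.07 to 3.65 on STZ arrays. Rod and ganglion cell genes had 3 of 6 and 1 of 3 called higher. Pigment epithelium genes (Rpe65, Ttr and Kcnj13) had 0 of 3 called at either time, by the Rpe65 probe that was brighter over all arrays. The other Rpe65 probe was called lower at 3 months (log2 fold change -0.83, limma adjusted p = 0.0111). In 3M Control that other probe was the brighter, at a mean log2 level of 0.24 against -0.25. The mean level of these 3 genes was 0.28 to 1.496 on 3M Control and 0.21 to 2.31 on 3M STZ arrays, with the lowest value on 3M STZ 2. At 1 month it was 0.20 to 1.68 on control and -0.72 to 0.74 on STZ arrays, with the lowest value on 1M STZ 4 and the highest on 1M STZ 2. Among the 3M STZ arrays that mean followed Ttr, whose SD was 2.16 beside 0.29 for Rpe65 and 0.38 for Kcnj13. The other lens genes, Grifin included, also had their lowest mean of the 1M STZ group on 1M STZ 4 (2.64) and their highest on 1M STZ 2 (3.72). In the 3M STZ group that mean was lowest on 3M STZ 2 (-0.04) and highest on 3M STZ 6 (1.16). The 3-month order carries no weight, since Grifin was below the filter's limit on every 3-month array and at -6.34 on 3M STZ 2. The share of tissue other than retina in the samples, and the part of any of these cells in the crystallin values, was not tested.

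The probes whose deviations from group means were most like those of the 8 genes other than Cryab, among 3133 tested probes with a symbol, were Lgals3 (r = 0.91 over 24 arrays), Slc6a11 (0.86), Or9s27 (0.82), Prx (0.82), S100a4 (0.81), Slc8a2 (0.80), Nupr1 (0.80), Dclk1 (0.79), Timp2 (0.79) and Grifin (0.77). Over all 3133 probes the median r was 0.04 and the 95th percentile 0.42. Without 1M STZ 4 and 3M STZ 2 Lgals3 kept 0.84 and Slc6a11 0.81, whereas Nupr1 had 0.55 and Grifin, dim on all 3-month arrays, 0.56. At 3 months the log2 fold change was 2.84 for Lgals3 (limma adjusted p = 5.66e-05) and 2.36 for Slc6a11 (adjusted p = 2.57e-05), and at 1 month it was 0.28 and 0.47, neither of them called. Dclk1 was higher at 3 months by 0.90 (limma adjusted p = 0.0237). By quantitative PCR the paper reports a rise of Lgals3 but decreases of Slc6a11 and Dclk1 at the later time. For Slc6a11 and Dclk1 the array values thus run opposite to that PCR. The cause of this disagreement was not tested.

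For Cryab the list was a different one. It was led by Wls (r = 0.92), Cd24 (0.90) and Gja1 with both of its probes (0.89 and 0.87), followed by Prx (0.86), Ppara (0.86), Tacr2 (0.84), Slc13a3 (0.83), Anxa1 (0.82) and Osbpl1a (0.82). The median r over all probes was 0.18 and the 95th percentile 0.55. Much of this rested on 2 arrays, since without 1M STZ 2 and 1M STZ 4 the values for Wls and Cd24 were 0.71 and 0.74 and that for Osbpl1a was 0.51. Of these genes Cd24 (log2 fold change 1.90, limma adjusted p = 0.00595), Prx, Tacr2, Slc13a3 and the first of the 2 Gja1 probes were called higher at 3 months, and Wls (0.53, adjusted p = 0.121), Ppara, Anxa1, Osbpl1a and the other Gja1 probe were not.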

How the data were processed

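Background-subtracted spot intensities were deposited by the authors, who scanned CodeLink arrays, excluded defective spots and subtracted background in the CodeLink software; per the file headers a second intensity column is divided by the array median, and a deposited series table repeats it. No genome build is given in the sources used here. Here each intensity was divided by the median of the array's 33849 rat probes, floored at 0.01 and put on the log2 scale. Probes with a median scaled intensity above the 35th percentile and at least 4 values a group were tested (22025). A model of the 4 groups was fitted with limma 3.58.1 in R 4.3.3, with Benjamini-Hochberg adjustment over all tested probes. Of 5469 probes with a RefSeq accession 4675 were matched to a symbol, so probes without one are unnamed here. On simulated data limma recovered 84% of 2-fold and 100% of 4-fold changes in the 3-month comparison of 22025 probes. The simulation changed 200 probes at each size and gave 16 false calls. On the real arrays 50.5% of tested probes were called higher at 3 months, so these shares do not carry over to them. The number of arrays limits the precision. The genes and lists were chosen with earlier results of these data known. Named genes were the 9 genes, called genes of the lens and small heat shock lists, and the 10 probes most alike in pattern; other genes named (untested lens genes, members of the enzyme and marker lists, and genes extreme on single arrays) were chosen after their values were seen. Alternatives covered scaling, background, floor, filter, test, block, weights, covariates and leaving out each array.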

Additional observations from a re-analysis of the deposited data

Results flagged for a closer look

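For each of the 9 genes the 6 arrays of each of the 4 groups were searched for an array whose distance to its nearest neighbour was large beside the range of its group, by Dixon's test. Chance flags about 1 in 20 groups, which for 36 groups is 1.8, and 5 such cases were found, on 4 arrays. Array 1M STZ 4 stood out in 2 cases, as the lowest of its group for Cryab (log2 level 3.40) and Cryba2 (4.45). Array 3M STZ 2 stood out as low for Crygd (0.16), array 1M STZ 2 as high for Lenep (3.94) and array 1M Control 1 as high for Lgsn (-0.0371, beside -1.77 to -1.27 on the other 5). Array 1M Control 1 also had the lowest Cryab level of its group, 5.58, and the highest Lenep level, 2.36.

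The effect of STZ at 3 months differed from that at 1 month for 7 genes by limma's test of the difference, with log2 differences of 1.52 (Cryab), 1.33 (Cryba2), 2.13 (Cryba4), 2.64 (Crybb1), 2.06 (Crybb3), 2.57 (Lenep) and 2.69 (Lgsn). The value for Lgsn carries no weight, since its 1-month levels lay below the filter's limit on every array but 1M Control 1. The arrays of the 2 time points differed in the spread of their values, and that difference cannot be told apart from time.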

How the results depend on the processing

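The count of genes called at 3 months was 8 and at 1 month 0 without any single array, and the count for the difference between the effects ran from 4 to 8, with 4 without 3M Control 1, 3M Control 3, 3M STZ 5 or 3M STZ 6. At 3 months the count was 3 under quantile normalization over all arrays or within each time point, 2 with undivided intensities, 5 with array brightness and 0 with array spread as a covariate. For the difference it was 1 under both quantile normalizations, 0 with undivided intensities or array spread as a covariate, and 4 with array brightness as a covariate or with the 5th percentile subtracted first. Quantile normalization within time points, undivided intensities and leaving out pairs of arrays were chosen after seeing the data. The causes of these shifts were not tested. With 3M Control 2 and 3M STZ 2 both left out 7 genes were called at 3 months and Cryab was not (0.91, limma adjusted p = 0.0629). The methods' test called 7 genes, without Lgsn, and 6 after adjustment, without Crygd. Estimates at 1 month changed sign for Cryba2 with array weights (0.15), without 1M STZ 4 (0.10) and with 1M STZ 2 and 4 both left out (0.037), for Cryab without 1M STZ 4 (0.059), and for Lenep with undivided intensities (-0.14), without 1M STZ 2 (-0.21) and with 1M STZ 2 and 4 both left out (-0.096). Over all single arrays left out the values at 1 month ran from -0.61 to 0.059 for Cryab, from -0.43 to 0.10 for Cryba2 and from -0.21 to 0.31 for Lenep. Lim2 at 3 months changed sign with undivided intensities (-0.18).

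With the replicate number as a block the counts were 0 at 1 month, 8 at 3 months and 7 for the difference, as without it. Arrays of the same number and time correlated between -0.24 and 0.25. With so few pairs these values cannot decide whether the numbers pair rats. The alternative on spot flags was not run, since the array files hold none.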

Other observations

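Grifin, a galectin-related protein of the lens, had a pattern of its own. On the 12 arrays of 1 month its log2 level ran with the beta-crystallins, at 4.99, 5.97 and 6.93 (lowest, median and highest) in controls and 2.86, 5.39 and 6.78 in STZ rats, with the lowest value on 1M STZ 4 and the highest STZ value on 1M STZ 2. On the 12 arrays of 3 months it lay between -6.34 and -3.28 in both groups, far below the array median. Of 33849 rat probes 13 were at least 32-fold higher on every array of 1 month than on any of 3 months, and 3 the other way. Arrays of the 2 times were different rats and sets of arrays, which cannot be told apart.

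Genes outside the list moved with the crystallins on single arrays, by values read after the arrays had been picked out. On 1M STZ 4 the probes with a symbol furthest below the other 5 arrays were Cd24 (-3.64 on the log2 scale), Gja1 (-3.33) and Ppp2r2d (-3.16), followed by Cdh1 (-2.95), Bmp4 (-2.92) and Grifin (-2.86). On 1M STZ 2 those furthest above were Ppp2r2d (3.45), Bnip3 (2.87), Lgals3 (2.69) and Cd24 (2.63). On 3M STZ 2 those furthest below were Hmox1 (-2.68), Mep1a (-2.15) and Ttr (-1.98), leaving out Grifin, which was dim on all 3-month arrays, against -5.46 for Crygd and -4.59 for Lgsn.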
